A study of Mus musculus with 2 samples.

Results

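The rows counted for ribosomal RNA (rRNA) in single neural stem/progenitor cells (NSPCs) are *mt-Rnr1* and *mt-Rnr2*, the small and the large rRNA of the mitochondrial ribosome, and the nuclear row ENSMUSG00000106106.3, which is annotated as an rRNA and listed by its identifier alone. They are 3 of the 15046 genes in the count table, and they were selected on their annotation with their lower level in cells with much lipid droplet protein already known, so that comparison is described here without a test. Together they held 5.12% of all unique molecular identifiers (UMIs, the tags by which each captured molecule is counted once), and their counts in a single cell reached higher than those of any other row.

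The cells are NSPCs from the subventricular zone of male C57/Bl6 mice aged 6 to 8 weeks, grown as neurospheres and then in proliferation medium with EGF and FGF-2. All of them carry a retroviral PLIN2-GFP construct, in which perilipin 2, a coat protein of lipid droplets, is joined to green fluorescent protein (GFP), and they belong to 1 stable line. The cells with least and with most GFP (25% each), here low and high PLIN2-GFP NSPCs, were placed 1 per well into plates of 384 wells and sequenced by SORT-seq, in which reverse transcription starts from a primer with a run of T. Plate 1 held 95 low and 84 high PLIN2-GFP NSPCs and plate 2 held 72 and 53. The cells had between 1170 and 34630 UMIs. The median depth went from 7856 UMIs in low to 11709 in high cells of plate 1 and from 11955 to 14729 UMIs on plate 2, so the categories differ in depth as well. Each row of wells held cells of a single category, with 0 of the 16 rows holding both, so wells and categories cannot be told apart. Both plates hold the same line, so no p-value here measures the spread between lines or animals. In fits with plate as a block, p-values rest on how a difference within plates varies from plate to plate. Without the block they also include the spread between plates. There were 304 cells, and 59 well barcodes occurred on both plates. Markers of the labelled cell type were present, with *Vim* found in 304, *Fabp7* in 302 and *Slc1a3* in 297 cells. The oligodendrocyte lineage factors *Olig1* and *Olig2* were also found in 304 and 300 cells, whereas the summed astrocyte markers *Gfap*, *S100b* and *Aqp4* stood between 8.17 and 24.3 CPM (counts scaled to a common library size) in each plate and category.

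rRNA is the catalytic and structural core of the ribosome. The cytosolic ribosome is built in the nucleolus from rRNA that RNA polymerase I transcribes from many nuclear repeats, while the rRNAs of the mitochondrial ribosome are read from mitochondrial DNA by its own polymerase and are cut out of the long transcript together with the tRNAs that flank them. Cytosolic rRNA has no poly(A) tail and mitochondrial rRNAs carry at most a short one, so libraries made with a T primer are not designed to count these molecules in proportion to their number.

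In GENCODE M21, *mt-Rnr1* lies at chrM:70-1024 and *mt-Rnr2* at chrM:1094-2675 of GRCm38, both on the plus strand and each as 1 exon, of 955 and 1582 bases. The nuclear row is the gene CT010467.1 at chr17:39846353-39848827 on the minus strand, and its rRNA transcript of 1849 bases spans chr17:39846353-39848201 as 1 exon. The version of this identifier in the count table is 3, whereas the release used here holds version 2, so the authors' gene model may differ from this one. To show where a T primer could find bases to pair with, the 20 bases with the most A in each transcript are printed in capitals, with up to 20 bases on either side, as GENCODE gives them.

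mt-Rnr1: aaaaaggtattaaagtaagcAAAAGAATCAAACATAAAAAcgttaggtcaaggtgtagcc
mt-Rnr2: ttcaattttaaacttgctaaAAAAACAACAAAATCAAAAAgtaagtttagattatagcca
ENSMUSG00000106106.3: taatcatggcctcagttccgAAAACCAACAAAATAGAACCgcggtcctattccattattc

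These stretches lie at chrM:705-764, chrM:1470-1529 and chr17:39847219-39847278. The window of *mt-Rnr2* holds 16 A, that of *mt-Rnr1* 15 and that of the nuclear row 13. Of the 141767 transcripts in the release, 9.84% have a window of 20 bases with at least 16 A. A window with at least 15 A is found in 16.7% and one with at least 13 in 43.7%. Among transcripts of any length, the stretches in the mitochondrial rRNAs are thus among the richer ones and that of the nuclear row is ordinary. Windows were not compared at like length. The longest run of A is 7 bases in *mt-Rnr2*, 5 in *mt-Rnr1* and 4 in the nuclear transcript. Among transcripts of like length, 24.5%, 58.8% and 98.3% have a run at least as long. The windows begin at base 656 of *mt-Rnr1*, 397 of *mt-Rnr2* and 944 of the nuclear transcript. After them, 280, 1166 and 886 bases remain to the 3′ ends, so that of *mt-Rnr1* lies nearest to its end. A is 37.8% of the bases of *mt-Rnr1*, 38.2% of those of *mt-Rnr2* and 21.9% of those of the nuclear transcript. A match of this kind describes the letters and not where the reads began.

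The end of the nuclear transcript shows which strand it reads. Its last 60 bases, at chr17:39846353-39846412, are given first as annotated, on the minus strand, and then on the plus strand.

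minus strand: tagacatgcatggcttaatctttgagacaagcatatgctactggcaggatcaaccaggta
plus strand: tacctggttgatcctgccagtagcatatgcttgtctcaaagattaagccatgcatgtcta

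The plus strand is the one that opens like 18S rRNA, the RNA of the small cytosolic subunit, so in this release the annotated transcript is its complement. RefSeq lists *Rn18s-rs5*, an 18S rRNA related sequence of 1849 bases, at this place. It is classed there as a pseudogene, with *Gm42418* among its synonyms. The richest window of 20 bases on the plus strand holds 12 A. In GENCODE, the lincRNA gene *AY036118* shares 49.1% of the runs of 31 bases of the nuclear transcript on the same strand. *Gm42418*, in GENCODE a lincRNA gene of its own, shares 66.7% on the other strand. How the counting used strand is not given in the sources used here, and the row's counts are uncertain between these genes. Neither *AY036118* nor *Gm42418* has a row of its own in the count table. For *mt-Rnr2*, only *Gm20594* shared runs of 31 bases, 2.71% of them, and for *mt-Rnr1* no other gene did. Counts of *mt-Rnr1* and of the nuclear row were whole numbers in 100% of the cells with a count, within 1e-06. Counts of *mt-Rnr2* were whole in 20.7% of cells, and *Gm20594* has no row in the count table. Why these counts were not whole was not tested.

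The large mitochondrial rRNA, *mt-Rnr2*, was the most abundant row of the table. *mt-Rnr2* had 253 UMIs per cell on average, ranged from 11.9 to 463 and was found in all 304 cells. The nuclear row was second, with 212 UMIs per cell and a range of 7 to 458 over 304 cells. *mt-Rnr1* had 119 UMIs per cell, with a range of 0 to 371, and was eighth among all rows by its mean. The highest counts in any cell belonged to these rows, and next came *mt-Cytb* (cytochrome b of complex III) with 357. Scaled to transcript length, mean levels lay closer together, at 160 UMIs per cell and kilobase for *mt-Rnr2*, 125 for *mt-Rnr1* and 115 for the nuclear row. Because a single read end is counted per molecule, this scale is a description and not a ratio of molecules. *mt-Rnr1* was missing from 1 cell, a low PLIN2-GFP NSPC in G1 phase with 1335 UMIs, in which 0 counts allow a share of up to 0.225% by counting error alone. The share of all 3 rows together ranged from 1.19% to 13.5% of a cell's UMIs on plate 1, with a median of 5.48%, and from 1.98% to 11.2% on plate 2, with a median of 4.61%.

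In low PLIN2-GFP NSPCs, each of the rows took a larger median share of UMIs than in high ones, and this held on both plates. *mt-Rnr2* held a median of 2.79% in low and 2.12% in high cells of plate 1, and 2.32% and 1.89% on plate 2. The nuclear row held 2.09% and 1.74% on plate 1 and 1.76% and 1.30% on plate 2. *mt-Rnr1* held 1.04% and 0.890% on plate 1 and 0.976% and 0.688% on plate 2. The cells of the categories overlapped widely, as the shares of *mt-Rnr2* had quartiles of 2.28% and 3.31% in low against 1.76% and 2.43% in high cells of plate 1. Medians of single rows of wells overlapped too. For *mt-Rnr2*, the 8 rows of wells with low cells of plate 1 had medians from 2.33% to 3.06%, and the 8 rows with high cells had medians from 1.85% to 2.43%. For *mt-Rnr1* these ranges were 0.763% to 1.17% and 0.559% to 1.23%.

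**Figure D1:**
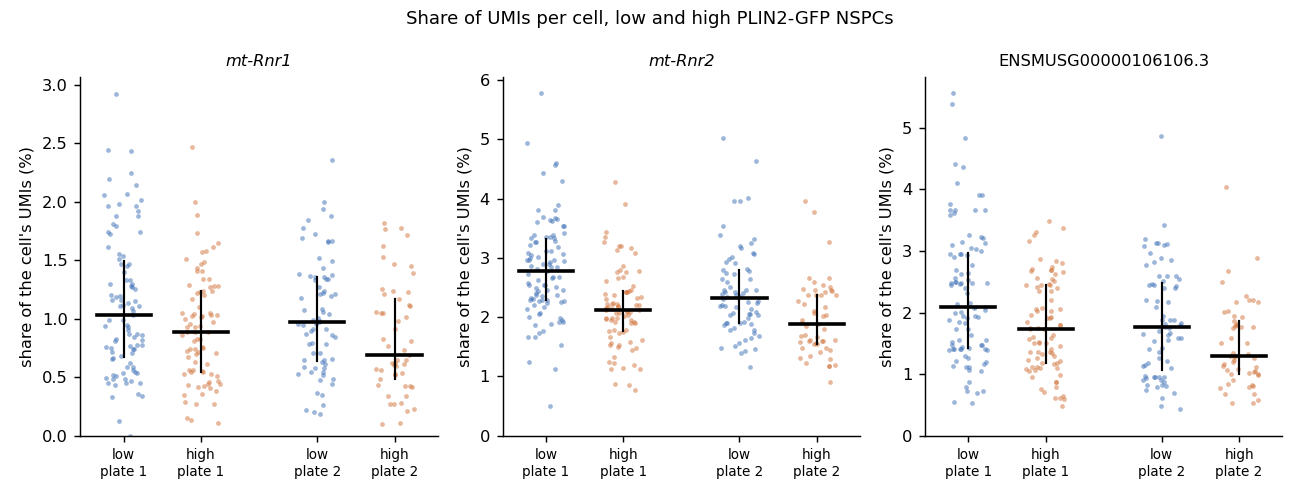
Share of a cell's UMIs (%, vertical axis) taken by each rRNA row in low and high PLIN2-GFP NSPCs of plates 1 and 2 (horizontal axis). Points are cells, horizontal bars medians and vertical bars quartiles. The medians of *mt-Rnr2* are 2.79% and 2.12% on plate 1 and 2.32% and 1.89% on plate 2, and the cells of the categories overlap.

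The counts of all cells of a category were then added up on each plate and scaled to CPM with TMM factors, which correct for differences in composition. *mt-Rnr2* stood at 28822 and 23976 CPM in the low category of plates 1 and 2 and at 20246 and 18564 CPM in the high category. The nuclear row stood at 24465 and 19014 CPM in low and 18044 and 14903 in high. *mt-Rnr1* stood at 12715 and 11164 CPM in low and 10027 and 9043 in high. For each row, the categories' sums did not overlap. The rows were chosen on this comparison and the share of all genes without overlap was not counted, so nothing is read from this. The log2 differences, high minus low, were -0.51 and -0.37 on the plates for *mt-Rnr2*, -0.44 and -0.35 for the nuclear row and -0.34 and -0.30 for *mt-Rnr1*. In this comparison, edgeR's quasi-likelihood test called 105 of 8348 genes lower (1.26%) and 74 higher (0.886%) at an adjusted p under 0.1, and since this comparison chose the rows, nothing is read from their place in it. The fitted log2 differences in cells in S phase were -0.074 for *mt-Rnr1*, -0.21 for the nuclear row and -0.32 for *mt-Rnr2*, with -0.47, -0.50 and -0.50 in cells in G2M phase. As log2 ratios of the share in the summed UMIs, *mt-Rnr1* had -0.058 and 0.021 in S phase of plates 1 and 2. In G2M phase it had -0.14 and -0.67. The nuclear row had -0.23 and -0.091 in S and -0.31 and -0.57 in G2M phase. For *mt-Rnr2* the values were -0.40 and -0.12 in S and -0.36 and -0.52 in G2M phase. Values were thus further below 0 in G2M on both plates for *mt-Rnr1* and the nuclear row, but for *mt-Rnr2* only on plate 2. The difference between phases was not tested. Within the narrower range of 8000 to 16000 UMIs per cell, with 144 cells, the values were -0.34 for *mt-Rnr1*, -0.33 for the nuclear row and -0.25 for *mt-Rnr2*, which for *mt-Rnr2* is less than in all cells.

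Cell cycle phases were assigned by the authors from the expression of S and G2M genes, which do not include rRNA, and neither the GFP sort nor the choice of the rows used them. On both plates, the summed level of all 3 rows was highest in G1 phase. *mt-Rnr2* stood at 27213 and 25409 CPM in G1, at 22017 and 20007 in S and at 21902 and 19876 in G2M phase of plates 1 and 2. The mean was 26311 ± 1275 CPM in G1, 21012 ± 1422 in S and 20889 ± 1432 in G2M phase (SD, n = 2 plates), and the values of G1 did not overlap with those of the other phases. *mt-Rnr1* stood at 13043 and 11529 CPM in G1, at 10805 and 10116 in S and at 9446 and 9236 in G2M phase, again without overlap with G1. The nuclear row stood at 22483 and 19718 CPM in G1, at 20473 and 16110 in S and at 19477 and 16173 in G2M phase. Its values overlapped between phases across plates, and on each plate G1 was the highest. How many of all genes have G1 values without overlap was not counted, so its lack in the mitochondrial rows is a description only.

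**Figure D2:**
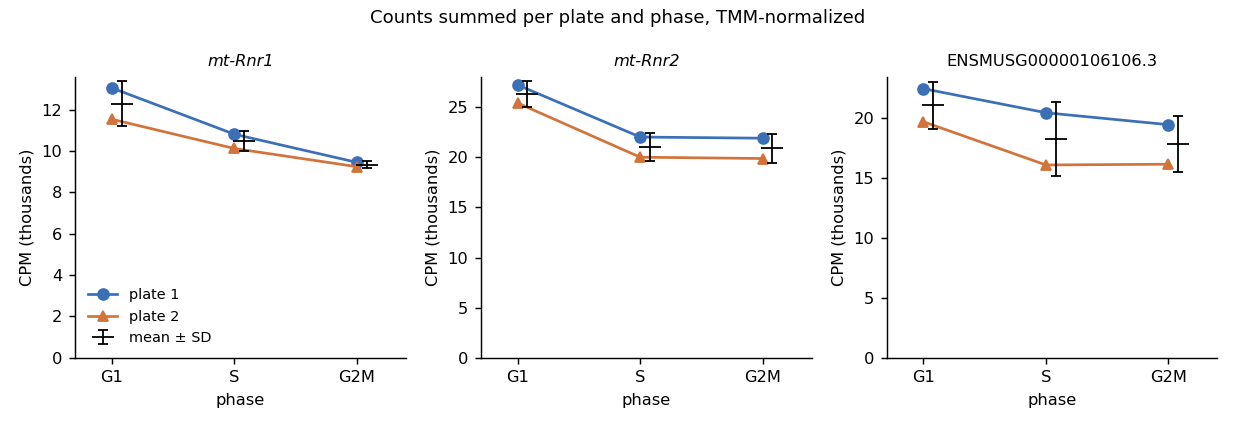
Level of each rRNA row in counts summed per plate and phase (vertical axis, TMM-normalized CPM in kilo units, starting at 0) in G1, S and G2M phase (horizontal axis). Circles are plate 1, triangles plate 2, and black marks the mean ± SD of the plates. G1 is the highest phase in each line, with 27213 and 25409 CPM for *mt-Rnr2*.

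The quasi-likelihood test of edgeR was run on the 6 sums of plate and phase, blocked by plate, and p-values were adjusted by Benjamini-Hochberg over 7650 genes, of which 5.19% were called lower and 7.56% higher in S than in G1, and 7.40% lower and 9.01% higher in G2M than in G1 phase, at an adjusted p under 0.1. On the log2 scale, *mt-Rnr2* was lower in S than in G1 phase, at -0.33 (standard error 0.05, adjusted p = 2.77e-05 in edgeR) and lower in G2M, at -0.33 (standard error 0.05, adjusted p = 8.99e-06). *mt-Rnr1* was lower in S, at -0.23 (standard error 0.06, adjusted p = 0.00676 by edgeR) and in G2M, at -0.39 (standard error 0.06, adjusted p = 6.25e-06). The nuclear row was lower in S, at -0.21 (standard error 0.05, adjusted p = 0.00706 by edgeR) and in G2M, at -0.25 (standard error 0.05, adjusted p = 0.00123). All 3 rows were thus lower in both phases, on both plates. The calls of the nuclear row were lost without the plate block (adjusted p = 0.428 in S and 0.302 in G2M by edgeR), as was that of *mt-Rnr1* in S (adjusted p = 0.295), while the other 3 calls held. With any 1 of the 6 sums left out and no block, the same 3 calls were lost, and *mt-Rnr2* in S phase was not called without the G1 or S sum of plate 1 or the S sum of plate 2 (adjusted p = 0.334, 0.109 and 0.465 by edgeR). In G2M phase, *mt-Rnr2* was not called without the G1 sum of plate 1 or the G2M sum of plate 2 (adjusted p = 0.306 and 0.416 by edgeR), and *mt-Rnr1* without these or the G2M sum of plate 1 (adjusted p = 0.314, 0.223 and 0.120).

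In high PLIN2-GFP NSPCs alone, the S phase difference was -0.068 for *mt-Rnr1* (adjusted p = 0.748 by edgeR) and -0.064 for the nuclear row (adjusted p = 0.748), with -0.34 and -0.27 in low PLIN2-GFP NSPCs, and the difference between the categories was not tested. As log2 ratios of the share in the summed UMIs, these differences in high cells were -0.056 and 0.043 on plates 1 and 2 for *mt-Rnr1* and 0.083 and -0.082 for the nuclear row, so the plates went in opposite directions. *mt-Rnr2* was lower in S than in G1 in each plate and category, with values between -0.12 and -0.31.

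The sums weigh cells by their depth, and the medians over cells give a partly different picture. The median share of *mt-Rnr2* was highest in G1 phase on both plates, at 2.67% against 2.21% in S and 2.33% in G2M on plate 1, and at 2.37% against 2.10% and 2.05% on plate 2. That of the nuclear row was 1.92%, 1.93% and 1.96% in G1, S and G2M phase of plate 1, and 1.67%, 1.52% and 1.49% on plate 2. For *mt-Rnr1* the medians were 1.07%, 0.957% and 0.825% on plate 1, but on plate 2 they were 0.787%, 0.984% and 0.843%, with G1 the lowest. In G1 phase the quartiles of *mt-Rnr1* stood at 0.590% and 1.55% on plate 1 and at 0.499% and 1.51% on plate 2. The median depth was lowest in G1 phase, at 8290 and 9825 UMIs on plates 1 and 2, against 10994 and 15301 in S and 9565 and 12902 in G2M phase. Each cell was also thinned to 5000 UMIs by random draws from its counts, which left out 45 cells. Thinning evens the weight of the cells but keeps a share that varies with depth, so it cannot test the part of depth. All 6 differences then kept their direction and their call by edgeR, between -0.18 and -0.36. In cells of 8000 to 16000 UMIs they lay between -0.14 and -0.37, and that of the nuclear row in S phase was not called (adjusted p = 0.108 by edgeR). Low PLIN2-GFP NSPCs made up 60.5% and 60.8% of G1, 51.2% and 50.0% of S and 43.9% and 60.5% of G2M cells of the plates. With the category as a further term over 12 sums, the differences were -0.27 and -0.30 for *mt-Rnr2* in S and G2M, -0.20 and -0.39 for *mt-Rnr1* and -0.17 and -0.22 for the nuclear row, all called by edgeR. Markers moved with phase too. *Olig1* and *Olig2*, the detected oligodendrocyte lineage markers (2 of 4), summed to 4225 and 4020 CPM in G1, 3430 and 3414 in S and 2551 and 2627 in G2M phase, and the 7 NSPC markers to 8350 and 8595, 7824 and 7816, and 7431 and 7688. The 3 astrocyte markers summed to 42.4 and 17.2 CPM in G1, 8.69 and 10.3 in S and 4.97 and 3.79 in G2M phase. *Rbfox3*, the only 1 of 3 neuron or neuroblast markers above 0, stood at 7.82 and 22.9 CPM in G1, 2.17 and 8.58 in S and 0 and 3.79 in G2M phase. By category it stood at 7.48 and 15.2 CPM in low cells of plates 1 and 2, against 0.972 and 7.71 in high cells. Their part in the result was not tested.

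**Figure D3:**
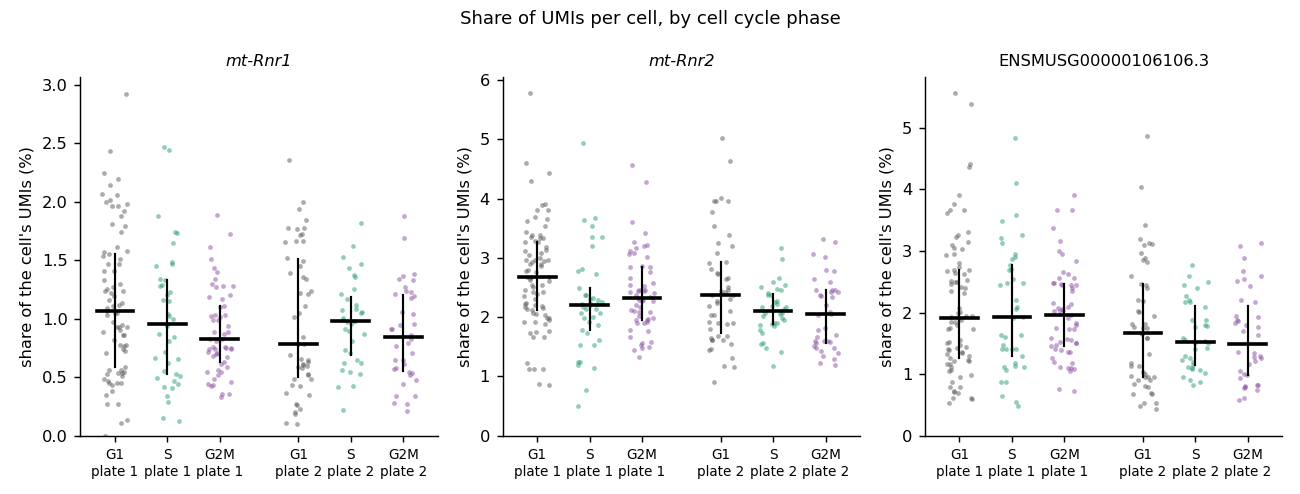
Share of a cell's UMIs (%, vertical axis) taken by each rRNA row in cells of G1, S and G2M phase of plates 1 and 2 (horizontal axis). Points are cells, horizontal bars medians and vertical bars quartiles. For *mt-Rnr2* the median is highest in G1 on both plates, at 2.67% and 2.37%, whereas for *mt-Rnr1* it is highest in G1 only on plate 1.

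The other genes of the mitochondrial genome and of ribosome making give the setting of these differences. Of the 13 mitochondrially encoded mRNAs, 10 were called lower and 0 higher in S, and 12 lower and 0 higher in G2M than in G1 phase. Over all genes tested, 5.19% and 7.40% were called lower in S and G2M. The median log2 fold changes of the mRNAs were -0.31 and -0.29, against -0.028 and -0.015 over all genes tested. *mt-Cytb* fell by 0.36 in S and *mt-Co2*, the second subunit of cytochrome oxidase, by 0.36 (adjusted p = 1.67e-05 and 2.77e-05 by edgeR), and *mt-Nd1* and *mt-Nd2*, subunits of complex I, by 0.31 and 0.33 (adjusted p = 0.000257 and 0.000164 by edgeR). In G2M, *mt-Atp8* (a subunit of ATP synthase) changed by -0.51 and *mt-Nd4* by -0.32 (adjusted p = 0.000109 and 9.67e-05 by edgeR). The summed counts of *mt-Rnr1* and *mt-Rnr2* thus fell by about as much as these mRNAs. Between high and low PLIN2-GFP NSPCs, 5 of the 13 mRNAs were called lower and 0 higher, with a median of -0.14 against -0.0014 over all genes tested, of which 1.26% were called lower. The calls of single genes between the categories rest on 1 residual degree of freedom. Without the plate block, edgeR called 1 of 8348 genes, so at most 1 of the category calls given here and in the lists that follow was kept. Together, *mt-Rnr1* and *mt-Rnr2* made up a median of 26.7% of a cell's mitochondrially encoded counts on each plate. By phase this share was 27.4%, 26.7% and 25.9% in G1, S and G2M on plate 1 and 25.0%, 27.8% and 25.4% on plate 2, with no order that the plates share. By category it was 29.4% in low and 25.1% in high cells of plate 1 and 28.0% and 23.9% on plate 2. All 10 mitochondrial tRNA rows were below edgeR's filter on low counts.

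Genes that make or mature rRNA were described from lists chosen for their function. Of 40 genes of RNA polymerase I and nuclear rRNA processing, 34 were tested. Of these, 12 were called higher and 0 lower in S, and 10 higher and 0 lower in G2M than in G1 phase. Over all genes tested, 7.56% and 9.01% were called higher in S and G2M. The medians of the list were 0.39 and 0.35, against -0.028 and -0.015 over all genes. These are opposite in sign to the change of the nuclear rRNA row. In S phase, *Nolc1*, a nucleolar phosphoprotein, rose from 59.0 and 36.9 CPM to 128 and 134, by 1.42 on the log2 scale (adjusted p = 0.000139 by edgeR). *Nop56*, a core protein of box C/D ribonucleoproteins, rose by 0.99, and *Ncl* (nucleolin) by 0.55 (adjusted p = 0.000142 and 0.000390 by edgeR). In G2M phase *Ncl* rose by 0.59 and *Ubtf*, the upstream binding factor of RNA polymerase I, by 0.90 (adjusted p = 7.05e-05 and 0.0110 by edgeR). The polymerase subunits *Polr1a* and *Polr1b* were not called, with 1.37 and 0.41 in S (adjusted p = 0.159 and 0.719). Between high and low PLIN2-GFP NSPCs, 2 of 37 were called lower, *Wdr12* (-1.10) and *Nop56* (-0.46), and 0 higher. Over all genes tested, 1.26% were called lower between the categories.

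Of 32 genes of mitochondrial transcription and rRNA maturation, 18 were tested by phase and 1 was called, *Grsf1*, an RNA binding protein of mitochondrial RNA granules, which rose by 0.76 in S phase (adjusted p = 0.0463 by edgeR). *Tfam*, which packs mitochondrial DNA and takes part in starting its transcription, had 0.50 in S and 0.31 in G2M (adjusted p = 0.208 and 0.489 by edgeR). *Tfb2m*, a transcription initiation factor, had -0.20 and -0.05 (adjusted p = 0.797 and 0.948 by edgeR). The median of the list was 0.22 in S and 0.08 in G2M. Between high and low PLIN2-GFP NSPCs, 23 were tested and 0 were called by edgeR, with *Tfam* at -0.01. Of the 79 genes of mitochondrial ribosomal proteins tested by phase, 1 was called higher and 0 lower in S, and 6 higher and 1 lower in G2M. Over all genes, 7.56% and 9.01% were called higher in S and G2M, so these counts are near or below the background. *Mrps18b* rose by 0.82 in S (adjusted p = 0.0600 by edgeR), and in G2M *Mrpl40* rose by 1.42 and *Mrps6* fell by 0.71 (adjusted p = 0.0265 and 0.0302). Of the 80 tested between the categories, edgeR called 0, and their median was 0.08. Of the 81 genes of cytosolic ribosomal proteins tested, 4 were called lower and 0 higher in S, and 2 lower and 3 higher in G2M, again near or below the 5.19% and 7.40% of all genes called lower and the 9.01% called higher in G2M. *Rpl39* fell by 0.31 in S and by 0.26 in G2M (adjusted p = 0.0163 and 0.0385 by edgeR), and *Rpl14* rose by 0.39 in G2M (adjusted p = 0.00535). Between high and low PLIN2-GFP NSPCs 7 were called lower and 0 higher, with a median of -0.17, where 1.26% of all genes were called lower. *Rpl23a* was lower, at -0.54, and so was *Rps24*, at -0.24 (adjusted p = 1.06e-06 and 0.0315 by edgeR). Among 14 names of other rRNA or rRNA-like rows, 1 could be tested, *Lars2*, a mitochondrial leucyl-tRNA synthetase, which was not called, with 0.13 in S, -0.05 in G2M and -0.32 in high against low PLIN2-GFP NSPCs (adjusted p = 0.846, 0.945 and 0.650 by edgeR).

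The authors' clusters were made from the expression of the same cells and are therefore described without a test. In cluster 1, low PLIN2-GFP NSPCs made up 73.6% of the cells of plate 1 and 79.0% of those of plate 2, and in cluster 0 they made up 33.7% and 36.5%, so cluster and category coincide in part. *mt-Rnr1* had a median share of 1.11% in cluster 1 and 0.771% in cluster 0 of plate 1, and of 0.996% and 0.734% on plate 2. *mt-Rnr2* had 2.60% and 2.21% on plate 1 and 2.32% and 1.99% on plate 2. The nuclear row had 2.03% and 1.82% on plate 1 and 1.85% and 1.30% on plate 2. Each of the rows thus took a larger median share in cluster 1 on both plates. Within low PLIN2-GFP NSPCs alone, *mt-Rnr1* stood at 1.17% in cluster 1 and 0.769% in cluster 0 of plate 1 and at 1.04% and 0.706% on plate 2. Within high PLIN2-GFP NSPCs it stood at 0.957% and 0.809% on plate 1 and at 0.646% and 0.751% on plate 2, where the order turned and cluster 1 held 13 cells. By median, *mt-Rnr1* in cluster 0 was thus higher in the high than in the low category on both plates. By summed counts the direction was the opposite, since within each cluster the share of each row in the summed UMIs was lower in the high category on both plates, with log2 ratios between -0.14 and -0.31 for *mt-Rnr1*, -0.19 and -0.44 for *mt-Rnr2* and -0.066 and -0.39 for the nuclear row.

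The share of UMIs that the rows took was not constant over the depth of a cell. On each plate, cells were divided into 6 bins of like size, 20 to 30 cells each, by their total UMIs. From the shallowest to the deepest bin of plate 1, with median totals from 2858 to 18884 UMIs, the median count of *mt-Rnr2* was 80.9, 135, 211, 290, 340 and 373. On plate 2, from 4650 to 23724 UMIs, it was 129, 186, 275, 324, 359 and 401. Its count flattened in deep cells, and its median share fell from 2.86% in the shallowest to 1.92% in the deepest bin of plate 1 and from 2.77% to 1.59% on plate 2. In between, its share was 2.29%, 2.54% and 2.67% in bins 2, 3 and 4 of plate 1 and 2.28%, 2.34% and 2.37% on plate 2. The share of *mt-Rnr1* was also higher in bin 4 than in bin 2, by more. Its median count was 21.5, 36.5, 61, 145, 181 and 198.5 on plate 1 and 27, 50, 108, 164, 179 and 238 on plate 2. Its median share was 0.578%, 0.736% and 1.30% in bins 2, 3 and 4 of plate 1, where the median total was 8195 UMIs in bin 3 and 10771 in bin 4, and on plate 2 it was 0.624%, 0.873% and 1.19% in bins 2, 3 and 4. The nuclear row also stepped up there, with 1.41% in bin 3 and 2.48% in bin 4 of plate 1, and with 1.07%, 1.76% and 1.88% in bins 2, 3 and 4 of plate 2. In the deepest bin its share was lower again, at 1.82% and 1.36%.

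**Figure D4:**
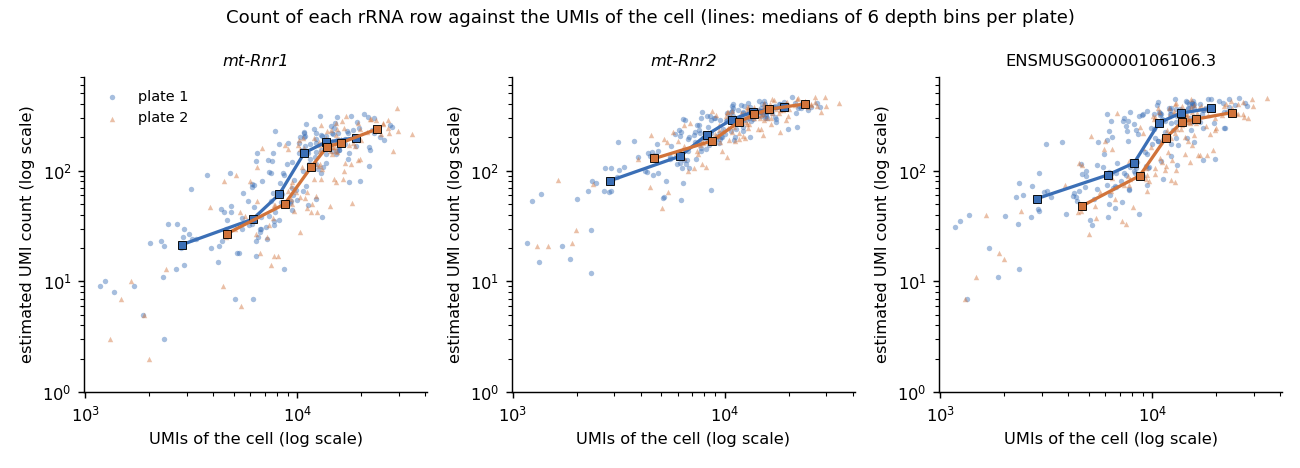
Estimated UMI count of each rRNA row (vertical axis, log scale) against the UMIs of the cell (horizontal axis, log scale). Points are cells of plate 1 (circles) and plate 2 (triangles), squares joined by lines are the medians of 6 depth bins per plate, and the 1 cell with 0 *mt-Rnr1* counts is not drawn. The medians of *mt-Rnr1* step up from 61 to 145 between bins 3 and 4 of plate 1, and those of *mt-Rnr2* flatten to 373 and 401 in the deepest bins.

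The Spearman correlation of the share with the UMIs of all other genes was 0.325 and 0.291 for *mt-Rnr1* on plates 1 and 2 (179 and 125 cells), -0.317 and -0.337 for *mt-Rnr2* and 0.0442 and 0.0745 for the nuclear row. A share and a total from the same library are not independent measures, so these values describe the cells only. On a log2 scale, the slope of the count on the UMIs of other genes was 1.26 and 1.40 for *mt-Rnr1*, 1.04 and 1.11 for the nuclear row and 0.90 and 0.87 for *mt-Rnr2*, where 1 would mean a constant share. Among 343 genes found in at least 90% of cells the median slope was 0.92 and 0.94, and 8 genes on plate 1 and 5 on plate 2 had a greater slope than *mt-Rnr1*. The ratio of *mt-Rnr1* to *mt-Rnr2* counts therefore changed with depth. Its median was 0.295 in the shallowest and 0.556 in the deepest bin of plate 1 and 0.227 and 0.579 on plate 2. Between low and high PLIN2-GFP NSPCs the ratio had no order that both plates share, with 0.382 and 0.424 on plate 1 and 0.464 and 0.414 on plate 2. By phase it was 0.393, 0.410 and 0.414 in G1, S and G2M on plate 1 and 0.358, 0.502 and 0.422 on plate 2.

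Cells rich in one of the rows were rich in the others, although 1 is nuclear and the others are mitochondrial. Over the cells of plates 1 and 2, the Spearman correlation between the shares of *mt-Rnr1* and the nuclear row was 0.80 and 0.78, with Pearson's r of 0.75 and 0.80. That of *mt-Rnr2* and the nuclear row was 0.66 on both plates, with r of 0.71 and 0.65. That of the mitochondrial rRNAs with each other was 0.60 and 0.64, with r of 0.64 and 0.61. After a straight line on log2 total UMIs was taken from the log2 shares, the mitochondrial rRNAs followed each other more closely, at 0.80 and 0.85, and *mt-Rnr1* and the nuclear row stood at 0.83 and 0.78. The cells share their library and their total, and no p is given.

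**Figure D5:**
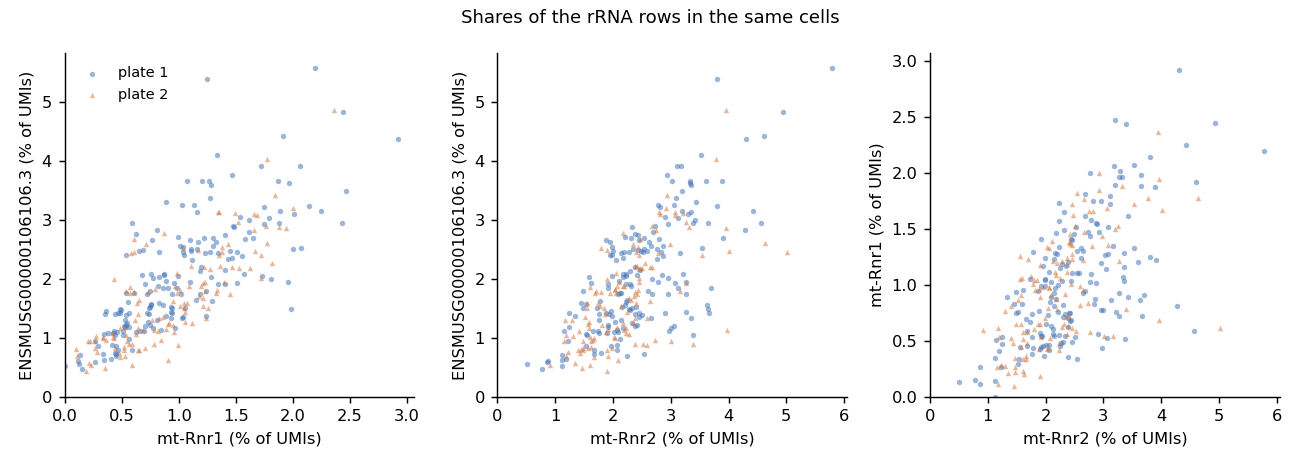
Shares of the rRNA rows in the same cells (both axes in % of UMIs), with *mt-Rnr1* against the nuclear row on the left, *mt-Rnr2* against the nuclear row in the middle and *mt-Rnr2* against *mt-Rnr1* on the right. Points are cells of plate 1 (circles) and plate 2 (triangles). Cells with a high share of one row have a high share of the others, with Spearman correlations of 0.80 and 0.78 in the left panel.

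Among the genes found in at least 90% of cells, the shares most like that of *mt-Rnr1* over cells were those of the nuclear row (mean Spearman correlation of the plates 0.79), *Malat1* (0.68), *Gm11407* (0.63), *mt-Rnr2* (0.62) and *mt-Nd4l* (0.52). *Malat1* is a long noncoding RNA that stays in the nucleus, at chr19:5795690-5802672, and *Gm11407* is annotated as a processed pseudogene at chr4:80002331-80003388. For *mt-Rnr2*, they were the nuclear row (0.66), *mt-Rnr1* (0.62), *mt-Nd5* (0.50), *mt-Nd4l* (0.39) and *Gm10222* (0.39), an unprocessed pseudogene at chr1:24612407-24612700. For the nuclear row, they were *mt-Rnr1* (0.79), *mt-Rnr2* (0.66), *Malat1* (0.50), *Gm11407* (0.47) and *Gm10222* (0.41). Neither *Malat1* nor either pseudogene shared a run of 31 bases with the rRNA transcripts. The median over the other 342 genes was -0.087 for *mt-Rnr1*, -0.073 for *mt-Rnr2* and -0.089 for the nuclear row. At the other end, the lowest values were those of the ribosomal protein gene *Rps20* with *mt-Rnr1* (-0.43) and of *Rpl39* with the nuclear row (-0.44), and that of *Eif4a1*, a helicase of translation initiation, with *mt-Rnr2* (-0.36). These were looked up after the values were seen. Shares within a cell sum to a fixed total, so that negative values arise in part by construction.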

How the data were processed

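The authors assigned reads with Salmon (alevin) to GRCm38, per the labels, and deposited estimated counts (expected counts) of UMIs per gene and cell, without normalization. The annotation release is not given in the sources used here. A deposited table of the cells gives totals of estimated counts, numbers of genes as a count, the part of mitochondrial counts (a fraction and a percent), a doublet score (all cells are listed as singlets) and cell cycle scores, next to plate, category, phase and cluster. All 304 unnamed columns of counts were matched to cells by equal totals and gene numbers (tolerance 1e-06), and 0 were left over.

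Counts were summed per plate and phase, or per plate and category, and rounded. They were tested with edgeR 4.0.16 in R 4.3.3 (TMM, filter on low counts, plate as a block, quasi-likelihood test, Benjamini-Hochberg adjustment), with 2 residual degrees of freedom by phase and 1 by category. The fit by phase was tested on simulated data. The common dispersion was 0.00443 and 0.00327. Same-numbered sums come from one plate, which pairs them. Their deviations had a correlation of 0.300 over 8348 genes. DESeq2 1.42.0 was an alternative. Descriptions used Python 3.11.15, pandas 2.3.3 and scipy 1.17.1. Named genes are the members, the called genes of the lists with the smallest p (up to 6 per list and comparison, of which some are printed) with the first 2 of each list, and the 5 most alike per member. The members and lists were chosen with earlier results of these data known.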

Additional observations from a re-analysis of the deposited data

How the results depend on the processing

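All 108 values of the phase differences under the alternatives were below 0. Among them, those of a stricter threshold for a call repeat the values of the fit by phase unchanged. Single plates were not all below 0, as given above for S against G1 phase in high PLIN2-GFP cells. All 39 values of high against low PLIN2-GFP were below 0 too, but the rows were chosen on this comparison, so nothing is read from their sign. By edgeR, the calls changed as follows. Without the replicate block, *mt-Rnr1* (-0.23) and the nuclear row (-0.21) lost their call in S and the nuclear row (-0.24) in G2M phase. With DESeq2, *mt-Rnr1* (-0.22) and the nuclear row (-0.20) lost theirs in S phase (adjusted p = 0.219 and 0.267). The nuclear row lost it in S in cells of 8000 to 16000 UMIs (-0.14) and in G2M in low PLIN2-GFP cells (-0.19), and both *mt-Rnr1* (-0.068) and the nuclear row (-0.064) in S in high PLIN2-GFP cells. With 1 of the 6 sums and the block left out, where a lone sum is assumed to vary like the others, values in S lay between -0.33 and -0.13 for *mt-Rnr1*, -0.39 and -0.25 for *mt-Rnr2* and -0.39 and -0.038 for the nuclear row, and in G2M between -0.48 and -0.29, -0.38 and -0.25, and -0.36 and -0.10. The nuclear row in both phases and *mt-Rnr1* in S were then called in none. *mt-Rnr2* was not called in S without G1 of plate 1 (-0.26), S of plate 1 (-0.39) or S of plate 2 (-0.25), nor in G2M without G1 of plate 1 (-0.26) or G2M of plate 2 (-0.25). *mt-Rnr1* was not called in G2M without G1 of plate 1 (-0.29), G2M of plate 1 (-0.39) or G2M of plate 2 (-0.36). The cause was not tested.

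Genes called in S and G2M numbered 975 and 1255, but 444 and 653 without the replicate block, 207 and 317 by DESeq2, 332 and 479 in thinned cells, 488 and 674 in cells of 8000 to 16000 UMIs, 642 and 661 in cells of the low and 363 and 655 in cells of the high category, and 260 to 488 and 320 to 714 with 1 sum left out. Between the categories, 179 were called, but 1 without the replicate block, 23 in thinned cells, 32 in cells of 8000 to 16000 UMIs, 8, 65 and 60 in G1, S and G2M cells, and 6 to 22 with 1 sum left out. Scaled by library size alone, the calls split into 153 higher and 85 lower between the categories (74 and 105 with TMM) and 682 and 242 in S phase (578 and 397).

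High against low, *mt-Rnr1* moved from -0.32 to -0.26 with library size only, -0.42 in thinned cells, -0.074 in S and -0.47 in G2M cells, and lay between -0.41 and -0.22 with 1 sum left out. *mt-Rnr2* moved from -0.44 to -0.25 in cells of 8000 to 16000 UMIs and -0.32 in S cells, and lay between -0.57 and -0.30. The nuclear row moved from -0.40 to -0.33 with library size only, -0.33 in cells of 8000 to 16000 UMIs, -0.21 in S and -0.50 in G2M cells, and lay between -0.57 and -0.20.

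The median share, averaged over plates, moved for *mt-Rnr1* from 0.925% to 0.988% as a mean over cells, 1.04% from summed counts, 1.09% of the UMIs of other genes, 1.08% in cells of 8000 to 16000 UMIs and 0.995% in cells of at least 5000. For *mt-Rnr2* it moved from 2.28% to 2.66% of the UMIs of other genes, and for the nuclear row from 1.76% to 2.03%, and to 2.13% in cells of 8000 to 16000 UMIs. By Pearson correlation, chosen after seeing the data, the relation to other UMIs was 0.19 for *mt-Rnr1*, -0.39 for *mt-Rnr2* and -0.065 for the nuclear row. With the line on total UMIs taken out, *mt-Rnr2* became the most like *mt-Rnr1* (0.83), and *Malat1* stood at 0.61 with *mt-Rnr1* and 0.50 with the nuclear row.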
